A study of Mus musculus with 6 samples.

Results

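CD8 T cell-like cells were 790 of the 24307 cells with at least 500 detected genes in a single-cell RNA-seq series of mouse lineage-negative (Lin-) haematopoietic stem and progenitor cells. They were picked by their own transcripts. A member had at least 2 unique molecular identifiers (UMIs, the tags that count captured RNA molecules) over Cd3d, Cd3e and Cd3g and at least 1 over Cd8a and Cd8b1. It had at most 1 UMI of Siglech, a plasmacytoid dendritic cell gene, and at most 2 over the basophil genes Ms4a2, Fcer1a, Cd200r3 and Cyp11a1. The series set 3 mice with the genotype Stag2 KO against 3 mice with the genotype Stag2 wt, 1 library per mouse. How the knockout was made, the strain, age and sex of the mice and any treatment are not given in the labels. Libraries KO1, KO2 and KO3 gave 47, 48 and 27 members, and libraries wt1, wt2 and wt3 gave 122, 214 and 332 members. Libraries are numbered in accession order, and the numbers pair nothing. Titles of KO1, KO2, KO3 and wt1 carry a code that starts with XA, while wt2 and wt3 carry other codes; what the code marks is not given.

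CD8 T cells are the cytotoxic arm of the T lineage. Their coreceptor, a dimer of CD8 alpha (Cd8a) and CD8 beta (Cd8b1) chains, binds MHC class I beside the T cell receptor, and CD3 chains carry the signal inside. They mature in the thymus and recirculate through blood, lymph nodes, spleen and bone marrow. Naive cells home to lymph nodes through Ccr7 and are held in that state by Tcf7, Lef1 and Klf2, whereas effector and memory cells express Ccl5, Nkg7, granzymes and the transcription factors Tbx21, Eomes and Id2. A Lin- preparation is meant to remove mature blood cells, T cells included. Cohesin, a ring that entraps DNA, pairs replicated chromosomes and extrudes loops of chromatin. It contains either the Stag2 or the Stag1 protein.

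The members' label was checked against T cell genes that the rule did not use. Of the 790 members 785 had a UMI of Trac, Trbc1 or Trbc2, which encode the constant parts of the alpha and beta chains of the T cell receptor. Trac ranged from 411 to 541 CPM (counts per 1000000, the UMIs of a gene scaled to the summed UMIs of a library's members) over the 6 libraries, against 0.755 to 15.2 CPM in NK cell-like cells. NK cell-like cells did carry Trbc1, at 308 to 424 CPM, and Trbc2, at 113 to 276 CPM. Members had 512 to 976 CPM of Trbc1 and 1241 to 1873 CPM of Trbc2. A UMI of Trbc1 or Trbc2 alone therefore does not tell a member from an NK cell-like cell. Bcl11b, a transcription factor that T cells need, lay at 135 to 245 CPM in members and at 6.04 to 12.0 CPM in NK cell-like cells. Lck, Lat and Cd2, of T cell signalling and adhesion, were at 341 to 678, 271 to 530 and 271 to 351 CPM in members. NK cell-like cells had 181 to 460 CPM of Lck, 33.2 to 48.9 CPM of Lat and 217 to 319 CPM of Cd2, so Lck and Cd2 overlapped with members while Lat did not. CD8-negative T cell-like cells (same rule, no CD8 UMI) had 264 to 471 CPM of Trac and 1059 to 1386 CPM of Trbc2. They had 59.1 to 168 CPM of Bcl11b, 318 to 484 of Lck, 323 to 378 of Cd2 and 181 to 255 of Lat. Apart from Lat, these genes overlapped with members and do not tell them from CD8-negative T cell-like cells. Cd4 had a UMI in 4 members. Trdc, the constant part of the delta chain of gamma delta T cells, had a UMI in 28 members and at least 3 UMIs in 17. Both CD8 chains were seen in 444 members, Cd8a alone in 140 and Cd8b1 alone in 206. Variable segments of the receptor were seen in few cells: over the libraries 1 to 7 members had a UMI of a Trbv gene, and no Trbv gene had more than 2 UMIs in a library.

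Some members also carried transcripts of other lineages. In all, 39 members had 10 or more UMIs of a list of B cell, plasmacytoid dendritic, basophil, granulocyte, monocyte and dendritic, erythroid and megakaryocyte, or stem cell genes: 1, 3 and 0 in the KO libraries, and 7, 11 and 17 in the wt libraries. The monocyte and dendritic cell list accounted for 18 of them. Before this count 16 genes, such as Ly6a, Cd48, Bst2, Irf8 and Ifitm1, were taken out of the lists. No doublet caller was run, and whether the 39 members were 2 cells in 1 droplet was not tested. At the edge of the rule, 29 members had exactly 2 CD3 UMIs and 25 cells with 1 CD3 UMI stayed outside; 138 members had exactly 1 CD8 UMI.

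The deposited libraries held 16155065 to 36248233 UMIs, and members summed to 171632, 199391 and 81139 UMIs in the KO libraries, and to 452876, 847438 and 936601 UMIs in the wt libraries. The median member had 3177, 3500.5 and 2958 UMIs in the KO libraries, and 3550.5, 3564.5 and 2314.5 UMIs in the wt libraries. Of 25237 distinct cell barcodes 391 stood in more than 1 library, and 28 members had such a barcode. Stag2 itself was at 25.1, 23.8 and 19.9 CPM over all cells of KO1, KO2 and KO3, and at 53.3, 44.0 and 42.8 CPM over those of wt1, wt2 and wt3, with no overlap. Which exons the knockout removes is not given, and a 3′ tag outside them would not test it. Within members Stag2 rested on 6, 7 and 2 UMIs in the KO libraries, against 23, 29 and 36 UMIs in the wt libraries, or 35.0, 35.1 and 24.6 CPM against 50.8, 34.2 and 38.4 CPM. The genotypes overlapped there (log2 fold change -0.32, SE 0.39, edgeR adjusted p = 0.954). Stag1 was at 64.1, 30.1 and 49.3 CPM in KO members and 42.0, 35.4 and 28.8 CPM in wt members (log2 fold change 0.39, SE 0.38, edgeR adjusted p = 0.929).

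Both coreceptor genes lie together on chromosome 6. In RefSeq's GRCm38.p6 annotation Cd8a spans chr6:71373427-71379171 and Cd8b1 spans chr6:71322788-71337492; which build the deposited counts were made on is not given here. The RefSeq promoter windows below run from 250 bases before to 50 bases after the start, 5′ to 3′ on the gene's own strand, and are shown because they belong to the gene that defines the cells and to genes that mark the classes of members described further on. Capitals mark 3 motifs searched on both strands, which overlap nowhere in these windows: TGTGGT, the Runx core, GGTGTGA, a T-box half-site, and CTTTGA, a Tcf/Lef core. Windows lie on chr6:71373177-71373476 (Cd8a, plus strand), chr7:43436888-43437187 (Nkg7, plus), chr14:56262285-56262584 (Gzmb, minus), chr1:164935473-164935772 (Xcl1, minus), chr15:9529827-9530126 (Il7r, minus) and chr8:72318812-72319111 (Klf2, plus).
Cd8a: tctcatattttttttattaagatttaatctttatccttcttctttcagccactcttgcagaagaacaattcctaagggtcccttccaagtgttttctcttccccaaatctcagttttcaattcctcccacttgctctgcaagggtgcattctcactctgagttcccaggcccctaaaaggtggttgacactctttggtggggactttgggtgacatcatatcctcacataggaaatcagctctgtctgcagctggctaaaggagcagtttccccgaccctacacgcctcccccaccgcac
Nkg7: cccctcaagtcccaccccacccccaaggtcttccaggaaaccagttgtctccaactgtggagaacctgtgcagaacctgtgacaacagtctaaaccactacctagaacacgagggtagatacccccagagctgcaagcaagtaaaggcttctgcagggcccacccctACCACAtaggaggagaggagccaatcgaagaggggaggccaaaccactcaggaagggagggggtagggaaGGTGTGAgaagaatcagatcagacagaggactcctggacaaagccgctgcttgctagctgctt
Gzmb: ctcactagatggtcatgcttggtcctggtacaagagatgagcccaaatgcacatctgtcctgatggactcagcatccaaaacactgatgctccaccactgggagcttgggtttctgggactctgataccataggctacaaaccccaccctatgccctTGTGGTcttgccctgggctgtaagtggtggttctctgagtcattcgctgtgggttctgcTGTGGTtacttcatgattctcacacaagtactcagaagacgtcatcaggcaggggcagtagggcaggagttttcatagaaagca
Xcl1: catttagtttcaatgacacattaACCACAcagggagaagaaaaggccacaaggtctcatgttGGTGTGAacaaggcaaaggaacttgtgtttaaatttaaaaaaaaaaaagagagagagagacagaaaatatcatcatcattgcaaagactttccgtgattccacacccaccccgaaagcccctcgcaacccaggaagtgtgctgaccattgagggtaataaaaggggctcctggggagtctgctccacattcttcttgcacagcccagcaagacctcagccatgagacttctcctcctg
Il7r: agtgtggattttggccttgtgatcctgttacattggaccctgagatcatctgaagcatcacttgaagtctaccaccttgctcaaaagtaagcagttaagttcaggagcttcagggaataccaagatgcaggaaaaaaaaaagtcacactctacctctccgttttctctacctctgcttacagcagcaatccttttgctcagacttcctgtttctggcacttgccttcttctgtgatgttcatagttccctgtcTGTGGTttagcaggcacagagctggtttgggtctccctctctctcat
Klf2: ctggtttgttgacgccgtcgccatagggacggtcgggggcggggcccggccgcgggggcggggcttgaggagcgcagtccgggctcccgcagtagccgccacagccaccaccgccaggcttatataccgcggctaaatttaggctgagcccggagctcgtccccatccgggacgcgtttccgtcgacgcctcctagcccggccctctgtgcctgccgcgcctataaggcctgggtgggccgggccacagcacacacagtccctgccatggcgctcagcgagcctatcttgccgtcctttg
Nkg7 encodes a granule protein of cytotoxic cells, Gzmb a granzyme, Xcl1 a chemokine, Il7r the receptor of the survival cytokine interleukin 7 and Klf2 a transcription factor of resting T cells. The Nkg7 and Xcl1 windows hold 1 Runx core and 1 T-box half-site each, the Gzmb window holds 2 Runx cores, the Il7r window holds 1 Runx core, and the Cd8a and Klf2 windows hold none of the 3 motifs. Among all 32851 promoter windows 16.8% hold a Runx core, 3.98% the T-box half-site and 16.003% the Tcf/Lef core. A match of letters is a description and not a bound site.

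The first question was whether the genotypes differed in how many CD8 T cell-like cells the Lin- preparation held. Members were 1.05%, 1.97% and 0.720% of the cells of the 3 KO libraries (KO1 to KO3), with 95% exact binomial intervals of 0.773 to 1.39%, 1.46 to 2.61% and 0.475 to 1.05%. The wt libraries (wt1 to wt3) had shares of 4.96%, 4.85% and 4.90%, with intervals of 4.14 to 5.89%, 4.23 to 5.52% and 4.40 to 5.44%. The genotypes did not overlap: every KO share was below every wt share, and the wt libraries lay close together while the KO libraries spread. The mean was 1.25% ± 0.650 in Stag2 KO and 4.90% ± 0.0556 in Stag2 wt (SD, n = 3 each), a KO to wt ratio of 0.255. The 2-sided exact permutation test over libraries gave p = 0.1, the smallest that 3 against 3 can reach. edgeR on the cell counts gave a log2 fold change of -2.09 with p = 5.05e-04. That fit held only the members and the remaining cells of each library and pooled its spread over both. Its p therefore does not measure the spread of members between mice alone. The intervals cover counting error only.

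All T cell-like cells were fewer as well. Cells that met the same rule without its CD8 condition were 3.31%, 6.17% and 2.29% of KO1, KO2 and KO3, and 14.3%, 10.8% and 11.1% of wt1, wt2 and wt3. They averaged 3.92% ± 2.01 in Stag2 KO and 12.1% ± 1.93 in Stag2 wt (SD, n = 3 each, exact permutation p = 0.1), without overlap. The CD8-negative ones among them averaged 2.67% ± 1.36 in Stag2 KO and 7.15% ± 1.88 in Stag2 wt, again without overlap (exact permutation p = 0.1, n = 3 each). NK cell-like cells, with at least 2 UMIs of Ncr1, Klre1, Klrb1c and Klrk1 and none of CD3 or CD8, did not show this. NK cell-like cells averaged 6.08% ± 1.64 in Stag2 KO and 5.74% ± 0.5001 in Stag2 wt, and the genotypes overlapped (exact permutation p = 0.8, n = 3 each). Per 100 NK cell-like cells there were 16.9, 25.8 and 16.5 members in the KO libraries, and 82.4, 80.1 and 94.9 in the wt libraries.

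Within T cell-like cells the CD8 share was also lower in the knockout, by a smaller margin. Members were 31.8%, 32.0% and 31.4% of T cell-like cells in the KO libraries, and 34.8%, 45.0% and 44.1% in the wt libraries. The KO libraries were nearly equal, and wt1 lay nearest to them, with its exact binomial interval of 29.8 to 40.0% covering all 3 KO values. The mean was 31.7% ± 0.304 in Stag2 KO and 41.3% ± 5.67 in Stag2 wt (SD, n = 3 each, exact permutation p = 0.1). edgeR on the cell counts gave a log2 fold change of -0.41 with p = 0.0322, from the same kind of fit and with the same limit. Among the libraries whose code starts with XA the mean difference was -3.04 percentage points, against -9.57 over all libraries. The exact permutation test of these 3 KO libraries against 1 wt library gave p = 0.25, the smallest it can reach. With cells thinned to 2000 UMIs the mean difference was -5.82 percentage points, and the genotypes overlapped, KO2 with 35.1% lying above wt1 with 34.1% (exact permutation p = 0.2). They also overlapped with at least 1000 genes per cell, KO2 with 32.6% lying above wt1 with 28.5% (exact permutation p = 0.2).

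**Figure D1:**
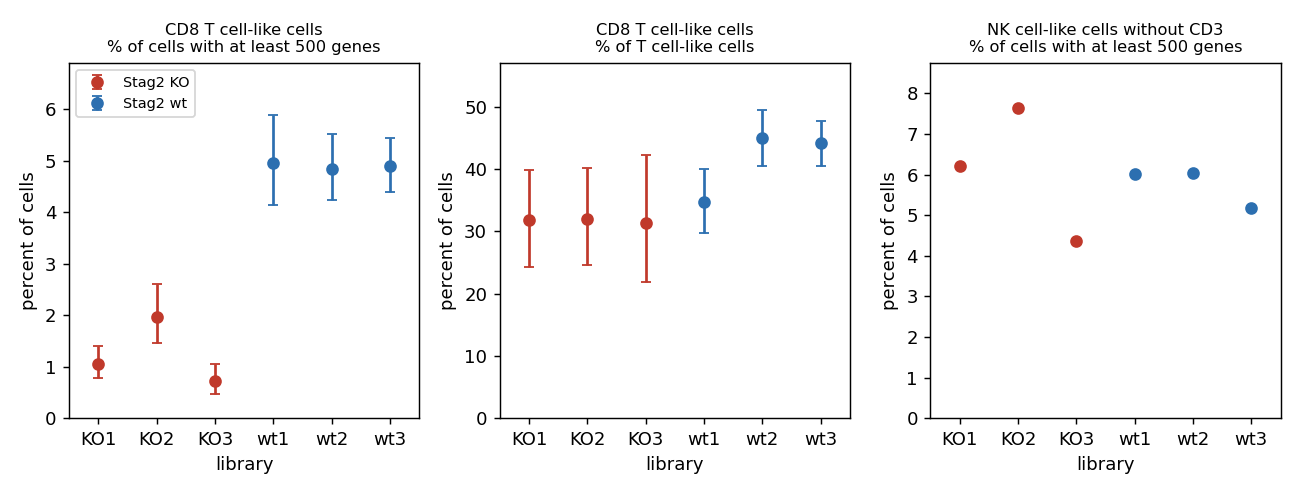
Share of CD8 T cell-like cells among all cells with at least 500 genes (left), share of CD8 T cell-like cells among T cell-like cells (middle) and share of NK cell-like cells (right), in percent, 1 point per library; bars in the left and middle panels are 95% exact binomial intervals. The 3 Stag2 KO libraries lie at 0.720 to 1.97% in the left panel, below the Stag2 wt libraries at 4.85 to 4.96%, while the NK cell-like shares of the genotypes overlap.

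Members were not uniform. Each was thinned to 2000 UMIs, so that depth per cell was equal, and shallower members were left out, which kept 44, 45 and 23 in the KO libraries and 114, 196 and 215 in the wt libraries. Ccl5, a chemokine of effector and memory cells, was seen in 22 of 44, 31 of 45 and 14 of 23 KO members, and in 56 of 114, 136 of 196 and 120 of 215 wt members. The genotypes overlapped: the mean was 59.9% ± 9.48 in Stag2 KO and 58.1% ± 10.3 in Stag2 wt (SD, n = 3 each, exact permutation p = 0.8). Without thinning the shares were 53.2%, 70.8% and 66.7% in the KO libraries and 51.6%, 73.4% and 59.3% in the wt libraries. Cells of another lineage give a background to such shares: those with at least 3 UMIs of the basophil genes and no CD3. At the same depth a UMI of Ccl5 was seen in 1.86 to 6.67% of these basophil-gated cells in the KO libraries and in 12.9 to 15.4% in the wt libraries. Whether those UMIs were free RNA was not tested. The basophil-gated cells had a median depth before thinning of 3521.5 to 4540.5 UMIs, against 2705 to 3645.5 UMIs in members.

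Genes of naive cells (Ccr7 or Lef1) were seen in 43.2%, 28.9% and 21.7% of KO1, KO2 and KO3 members, and in 49.1%, 36.7% and 44.2% of wt1, wt2 and wt3 members. KO2 and KO3 were the lowest libraries and KO1 lay between wt2 and wt3, so the genotypes overlapped. The mean was 31.3% ± 10.9 in Stag2 KO and 43.3% ± 6.24 in Stag2 wt (SD, n = 3 each, exact permutation p = 0.2). Unthinned shares were 46.8%, 35.4% and 29.6% in the KO libraries and 63.1%, 43.9% and 48.2% in the wt libraries. Of the basophil-gated cells none had a UMI of either gene in the KO libraries at 2000 UMIs (0 of 984, 540 and 1022 cells, which allows shares of up to 0.305%, 0.556% and 0.294%), and 0.0947 to 0.281% did in the wt libraries.

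Most members were on 1 side of this division. Ccl5 without Ccr7 or Lef1 was seen in 17, 25 and 13 thinned members of KO1, KO2 and KO3, and in 39, 107 and 84 of wt1, wt2 and wt3. The naive genes without Ccl5 were seen in 14, 7 and 4 members of the KO libraries, and in 39, 43 and 59 of the wt libraries. Both were seen in 5, 6 and 1 members of the KO libraries and in 17, 29 and 36 of the wt libraries. At this depth a missing UMI does not show that a gene is off, so the classes are ranges of detection and not types.

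**Figure D2:**
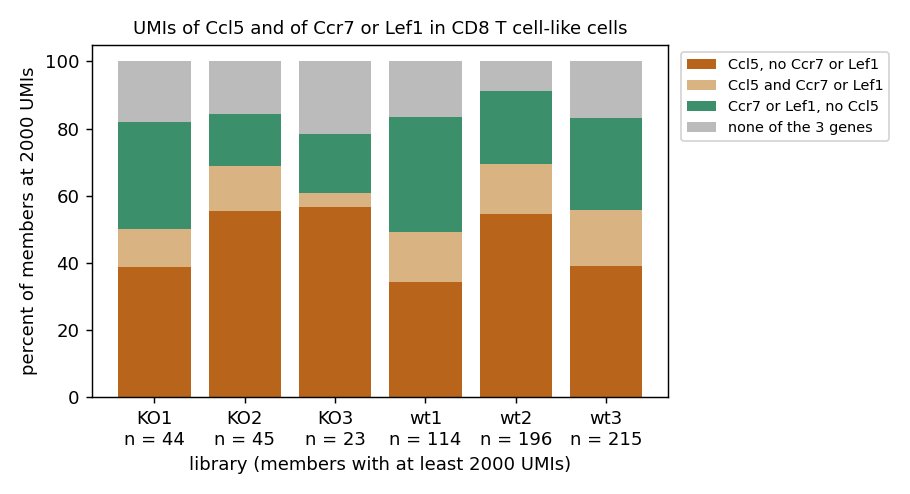
Share of CD8 T cell-like cells, in percent of members with at least 2000 UMIs per library, that had a UMI of Ccl5, of Ccr7 or Lef1, of both or of none after thinning to 2000 UMIs. KO2, KO3 and wt2 show the largest shares with Ccl5 alone, 55.6%, 56.5% and 54.6%, and KO1 and wt1 the largest shares with the naive genes alone, 31.8% and 34.2%, so the libraries of neither genotype stand together.

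The Ccl5 class and the naive class were compared over other T cell genes. Of 129 genes on the lists of T cell state and signalling, 46 were higher in the Ccl5 class in all 6 libraries and 11 were higher in the naive class in all 6, the genes that set the classes included. Of the 128 of them with a UMI in either class these were 35.9% and 8.59%, against 4.45% and 1.26% of all 11948 such genes. Of the 99 of them that passed the low-count filter 43.4% were higher in the Ccl5 class and 10.1% in the naive class in all 6, against 12.5% and 4.53% of all 3069 genes that passed it. These are descriptions, since classes and levels come from the same cells. Nkg7 had 2895, 3015 and 3156 CPM in the Ccl5 class of KO1, KO2 and KO3, and 2108, 2335 and 2444 CPM in that of wt1, wt2 and wt3. In the naive class Nkg7 had 942, 381 and 958 CPM in the KO libraries and 668, 529 and 832 CPM in the wt libraries. In every library the Ccl5 class was the higher one, and the ranges over libraries did not overlap.

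Other genes of effector and memory cells followed the Ccl5 class. S100a6, a calcium-binding protein raised on activation, had a median of 1079 CPM over libraries in the Ccl5 class and 3.84 CPM in the naive class. Id2, a transcription factor of effector cells, had 793 CPM in the Ccl5 class and 57.5 CPM in the naive class. Klrk1, which encodes the activating receptor NKG2D, had 411 CPM in the Ccl5 class and 3.84 CPM in the naive class. Il2rb, the beta chain of the interleukin 2 and 15 receptors, had 236 CPM in the Ccl5 class and 10.7 CPM in the naive class. For Cxcr3, a chemokine receptor of effector and memory cells, the Ccl5 class had 153 CPM and the naive class 7.68 CPM. Gzmb and Xcl1 had 141 and 258 UMIs in the Ccl5 class and no UMI in the naive class of any library. Klrc1, an inhibitory NKG2 receptor, had 197 UMIs in the Ccl5 class and 1 in the naive class.

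In the naive class, Dapl1 had a median of 450.04 CPM, against 37.5 CPM in the Ccl5 class. Klf2, which drives the genes of lymph node homing and tissue exit, had 1050 CPM in the naive class and 438 CPM in the Ccl5 class. Tcf7 had 192 CPM in the naive class and 85.1 CPM in the Ccl5 class, and Il7r had 206 CPM in the naive class and 60.1 CPM in the Ccl5 class. Cd8b1 itself was higher in the naive class in 6 of 6 libraries, at a median of 1605 CPM there and 811 CPM in the Ccl5 class. The rule chose cells by Cd8a and Cd8b1, so this level is a description only. Of the 45 genes higher in the Ccl5 class in all libraries other than Ccl5, 32 had RefSeq promoter windows, 42 windows in all, of which 42.9% hold a Runx core, 9.52% the T-box half-site and 21.4% the Tcf/Lef core. Of 9 such genes of the naive class 7 had windows, and of those 14 windows 7.14% hold a Runx core, 0% the T-box half-site and 7.14% the Tcf/Lef core. Several of these genes have more than 1 window, and killer cell receptor genes are near copies of each other, so windows are not independent.

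**Figure D3:**
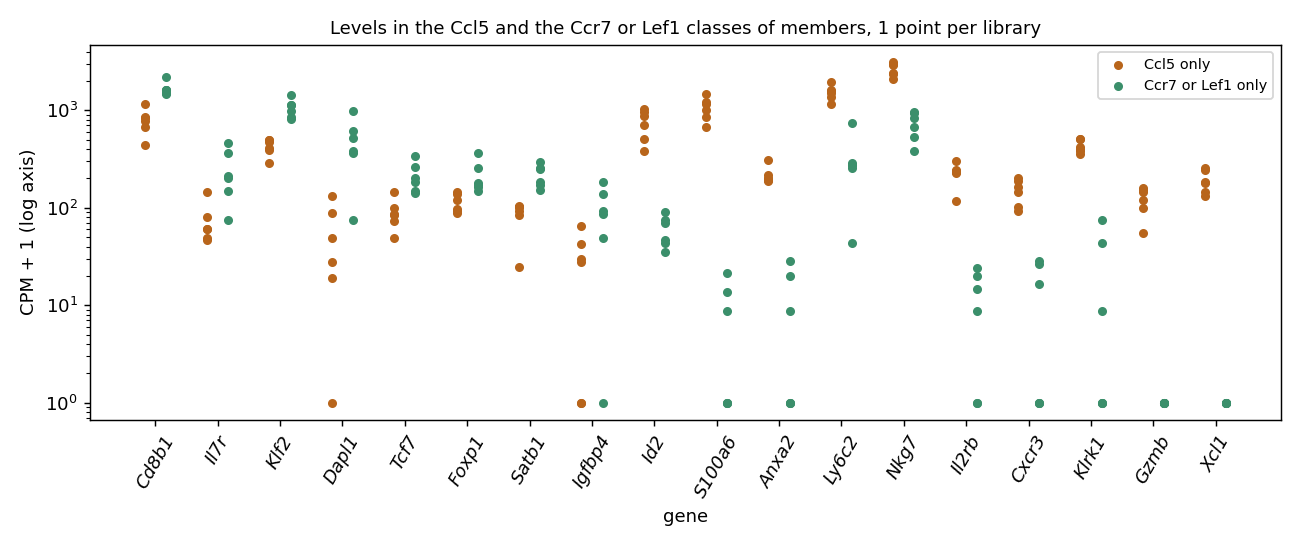
Level (CPM + 1, log axis) of 18 genes in members with Ccl5 and no Ccr7 or Lef1 (brown) and in members with Ccr7 or Lef1 and no Ccl5 (green), 1 point for each of the 6 libraries. Gzmb and Xcl1 are at 0 CPM in the naive class of every library, and Cd8b1, Il7r, Klf2, Dapl1, Tcf7, Foxp1 and Satb1 are higher in the naive class in 6 of 6 libraries and Igfbp4 in 5. Cd8b1 is a gene of the rule that chose the cells.

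Gene levels in members were then compared between genotypes, on UMIs summed over the members of each library. Of 3064 genes tested with edgeR's quasi-likelihood test, 7 were lower in Stag2 KO at an adjusted p under 0.05, which is 0.228% of those tested, and 0 were higher (0%). At an unadjusted p under 0.05, 80 genes were higher (2.61%) and 95 were lower (3.1%), and DESeq2 called 1 higher and 10 lower. The CPM of the genotypes did not overlap for 379 genes (12.4%). In simulated counts at these depths, the edgeR step recovered 37.5% of genes changed 2-fold, 93.4% of those changed 4-fold and all of those changed 8-fold, with 4 false calls. Most simulated 2-fold changes were missed. Every gene was simulated with the same spread between libraries, whereas single members held most UMIs of some real genes. Recovery and false calls may therefore differ in the real counts.

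No gene of the lists of T cell state, receptors and signalling was called between the genotypes. Trac had 507, 411 and 530 CPM in KO members and 541, 519 and 435 CPM in wt members, and the genotypes overlapped (log2 fold change -0.13, SE 0.19, edgeR adjusted p = 0.962). Trbc1 had 606, 512 and 776 CPM in KO members and 806, 976 and 743 CPM in wt members (log2 fold change -0.50, SE 0.19, edgeR adjusted p = 0.693), and KO3 overlapped with wt3. Ccl5, with 7335, 14610 and 15344 CPM in KO members and 6814, 9841 and 9160 CPM in wt members, also overlapped (log2 fold change 0.47, SE 0.21, edgeR adjusted p = 0.828). Lef1 had 233, 140 and 173 CPM in KO members and 214, 169 and 220 CPM in wt members (log2 fold change -0.20, SE 0.23, edgeR adjusted p = 0.954). The rule chose cells by Cd8a and Cd8b1, whose levels are therefore given without a test: Cd8a had 612, 517 and 481 CPM in KO members and 371, 418 and 423 CPM in wt members, without overlap. Cd8b1 had 1171, 838 and 1306 CPM in KO members and 1195, 969 and 1232 CPM in wt members. There were 1.91, 1.62 and 2.72 Cd8b1 UMIs per Cd8a UMI in the KO libraries, and 3.22, 2.32 and 2.91 in the wt libraries.

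By list, 0 of 12 tested naive and resting T cell genes passed, with a median log2 fold change of -0.13, against -0.01 over all genes tested. None of 21 effector and memory genes (median -0.07), 23 T cell receptor and signalling genes (-0.05), 13 T lineage transcription factors (-0.08), 10 killer cell lectin-like receptors (-0.13) or 18 cytokine and chemokine receptors (-0.06) passed in edgeR. The same held for 10 cohesin genes and partners (0.22) and 18 genes of MHC class I and antigen processing (0.20). At an unadjusted p under 0.05 edgeR had 5 of the 21 effector and memory genes higher and 3 lower. Over all 3064 genes tested 2.61% were higher and 3.1% lower at that bound. The smallest edgeR adjusted p of that list was 0.241. Gzmm and Cxcr6, further from passing, differed in direction. Gzmm, a granzyme, had 29.1, 25.1 and 37.0 CPM in KO members and 61.8, 93.2 and 47.0 CPM in wt members (log2 fold change -1.28, SE 0.44, edgeR adjusted p = 0.604). Cxcr6, which guides T cells into tissue, had 204, 186 and 197 CPM in KO members and 66.2, 142 and 122 CPM in wt members (log2 fold change 0.73, SE 0.25, edgeR adjusted p = 0.576). Neither gene overlapped between the genotypes.

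S100a4, a calcium-binding protein of effector and memory cells, was the gene closest to a call among those higher in Stag2 KO besides S100a9. S100a4 had 75.7, 211 and 86.3 CPM in KO members, against 26.5, 46.0 and 42.7 CPM in wt members, with no overlap (log2 fold change 1.69, SE 0.35, edgeR adjusted p = 0.0798). It was seen in 14.9%, 35.4% and 18.5% of KO members and in 5.74%, 9.81% and 8.13% of wt members. Within the Ccl5 class alone S100a4 had 175, 318 and 143 CPM in the KO libraries and 60.2, 64.2 and 44.7 CPM in the wt libraries, and in the naive class it had 1 UMI in all. S100a4 passed in edgeR when the 39 members with 10 or more UMIs of another lineage were left out (log2 fold change 1.92, adjusted p = 0.0469) and in DESeq2 (1.68, adjusted p = 0.0296). In CD8-negative T cell-like cells it was called, at 120, 126 and 228 CPM in the KO libraries and 55.8, 34.9 and 28.8 CPM in the wt libraries (log2 fold change 1.90, edgeR adjusted p = 0.0157). NK cell-like cells had 45.2, 180 and 162 CPM of S100a4 in the KO libraries and 213, 121 and 61.4 CPM in the wt libraries. The genotypes overlapped there. Dok2, an adaptor that damps receptor signalling, had 140, 115 and 148 CPM in KO members and 66.2, 61.4 and 58.7 CPM in wt members (log2 fold change 1.03, SE 0.22, edgeR adjusted p = 0.107).

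Ly6a, which encodes the surface protein Sca-1 of stem cells and activated lymphocytes, had 216, 186 and 210 CPM in KO members and 70.7, 135 and 81.1 CPM in wt members, and did not pass (log2 fold change 0.998, SE 0.25, edgeR adjusted p = 0.241). Vmp1, of autophagy, had 93.2, 115 and 98.6 CPM in KO members and 57.4, 42.5 and 43.8 CPM in wt members (log2 fold change 1.09, SE 0.27, edgeR adjusted p = 0.226). Prex1, an activator of Rac, had 87.4, 115 and 111 CPM in KO members and 44.2, 56.6 and 35.2 CPM in wt members (log2 fold change 1.14, SE 0.29, edgeR adjusted p = 0.241). The genotypes overlapped for none of these 3 genes. S100a9, a neutrophil protein, had 58.3, 1625 and 24.6 CPM in KO members and 15.5, 30.7 and 24.6 CPM in wt members, and 300 of its 324 UMIs in KO2 lay in 1 member (log2 fold change 4.58, SE 0.93, edgeR adjusted p = 0.0782).

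Of the 7 genes called lower, 4 had most of their UMIs in a few wt members. H2-Aa and Cd74 encode an MHC class II chain and its invariant chain, which dendritic cells, monocytes and B cells use to present antigen. H2-Aa (chr17:34282744-34287823) had 0, 5.02 and 0 CPM in KO members, against 128, 88.5 and 95.02 CPM in wt members (log2 fold change -5.41, edgeR adjusted p = 0.00381). This rested on 1 UMI in KO members and 222 in wt members, a ratio per UMI of 0.0223 with an exact counting interval of 5.62e-04 to 0.125. The interval takes every UMI as a separate draw and does not cover the spread between members or mice. Of the wt UMIs of H2-Aa, 51, 43 and 84 lay in 1 member each of wt1, wt2 and wt3. Cd74 (chr18:60803849-60812652) had 23.3, 20.1 and 24.6 CPM in KO members, against 638, 222 and 247 CPM in wt members (log2 fold change -4.11, SE 0.58, edgeR adjusted p = 0.00584). In wt1 265 of its 289 UMIs, and in wt3 203 of its 231 UMIs, lay in 1 member. Shares of members with a Cd74 UMI were 6.38%, 8.33% and 7.41% in the KO libraries and 4.10%, 7.48% and 6.93% in the wt libraries, so they overlapped. NK cell-like cells had more of it and were also lower in the knockout, at 104, 418 and 243 CPM in the KO libraries and 1623, 1431 and 1029 CPM in the wt libraries (log2 fold change -2.44, edgeR adjusted p = 2.14e-04).

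Apoe, a lipid carrier made by macrophages and, in these libraries, at 473 to 620 CPM in basophil-gated cells, had 35.0, 35.1 and 24.6 CPM in KO members and 106, 126 and 155 CPM in wt members (log2 fold change -2.03, SE 0.29, edgeR adjusted p = 0.00584). Ifitm3 (chr7:141009590-141010744), an interferon-induced antiviral membrane protein, had 29.1, 15.05 and 0 CPM in KO members and 81.7, 101 and 130 CPM in wt members (log2 fold change -2.64, SE 0.43, edgeR adjusted p = 0.0141). Of the wt UMIs, the 3 highest members of each library held 73.1 to 86.0% for Apoe and 46.7 to 81.1% for Ifitm3. In NK cell-like cells Ifitm3 had 68.2, 101 and 148 CPM in the KO libraries and 194, 348 and 266 CPM in the wt libraries. Basophil-gated cells had 110, 86.1 and 109 CPM in the KO libraries and 174, 223 and 218 CPM in the wt libraries, also without overlap. CD8-negative T cell-like cells overlapped, at 61.3, 47.9 and 66.4 CPM in the KO libraries and 53.5, 110 and 123 CPM in the wt libraries. After the 39 members with 10 or more UMIs of another lineage were left out, Cd74 was at 24.8, 19.1 and 24.6 CPM in KO members and 7.57, 21.6 and 23.2 CPM in wt members. Apoe was then at 37.3, 31.8 and 24.6 CPM in KO members and 25.2, 17.6 and 46.4 CPM in wt members, and Ifitm3 at 31.1, 19.1 and 0 CPM in KO members and 10.1, 17.6 and 36.1 CPM in wt members. The genotypes overlapped for each of these 3 genes in the cells that remained. Cd74 and H2-Aa are themselves on the monocyte and dendritic cell list that helped choose the members left out. Their fall in wt members was therefore set by that choice and is no separate result. Apoe and Ifitm3 are on none of the lists used. Among the remaining members none of the 4 genes passed the low-count filter, so none was tested. Ifitm3 was the 1 called member of the interferon list (16 tested), and Cd74 and H2-Aa were the 2 called of the monocyte and dendritic cell list (9 tested).

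Mcpt8, Rpl35 and a predicted gene, Gm10076, were lower across many members. Mcpt8 (chr14:56082163-56085499), a basophil protease, had 111, 105 and 98.6 CPM in KO members and 230, 215 and 275 CPM in wt members, with no overlap (log2 fold change -1.24, SE 0.21, edgeR adjusted p = 0.0195). No member had more than 6 UMIs of it, and it was seen in 31.9%, 31.3% and 14.8% of KO members and 58.2%, 55.6% and 49.4% of wt members. Basophil-gated cells, its known source, were at 14946, 13445 and 16088 CPM in the KO libraries and 27778, 33049 and 30205 CPM in the wt libraries. NK cell-like cells had 81.0, 124 and 114 CPM of Mcpt8 in the KO libraries and 275, 195 and 301 CPM in the wt libraries. The part of free RNA in the members' Mcpt8 was not tested. Of the basophil list 5 genes were tested and Mcpt8 was the 1 called; the list summed to 333 to 537 CPM in KO members and 570 to 873 CPM in wt members.

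Rpl35 (chr2:39001581-39005131), a protein of the large ribosomal subunit, had 2610, 2673 and 1935 CPM in KO members and 3908, 4072 and 4860 CPM in wt members, with no overlap (log2 fold change -0.89, SE 0.15, edgeR adjusted p = 0.0141). It was also lower in NK cell-like cells, at 1993, 2486 and 1812 CPM in the KO libraries and 2959, 3396 and 3696 CPM in the wt libraries (log2 fold change -0.69, edgeR adjusted p = 0.0025), and in CD8-negative T cell-like cells (-0.73, adjusted p = 0.0445). Gm10076, named although predicted genes are otherwise left out, had 926, 1274 and 838 CPM in KO members and 1751, 3210 and 3788 CPM in wt members (log2 fold change -1.56, SE 0.23, edgeR adjusted p = 0.00584). Ribosomal protein genes have many near-identical copies, and how the authors' counting split such reads is not given. With the title code as a covariate Apoe, Ifitm3, Mcpt8 and Rpl35 did not pass in edgeR (adjusted p 0.104 to 0.110), with log2 fold changes of -1.83, -2.35, -1.27 and -0.85. Gm10076 did not pass there either (log2 fold change -0.93, edgeR adjusted p = 0.110). The covariate was whether the code starts with XA, which holds for all KO libraries and wt1. The genotype effect of that fit therefore rests on the KO libraries against wt1 alone. Without wt3 neither Mcpt8 (-1.17, adjusted p = 0.105), Rpl35 (-0.83, 0.102), Ifitm3 (-2.47, 0.0858) nor Gm10076 (-1.37, 0.0573) passed in edgeR. Mcpt8 also missed the threshold without KO1, KO2 or KO3 (edgeR adjusted p 0.0664 to 0.0811), Rpl35 without KO3 (0.0822) and Ifitm3 without KO2 (0.0811).

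**Figure D4:**
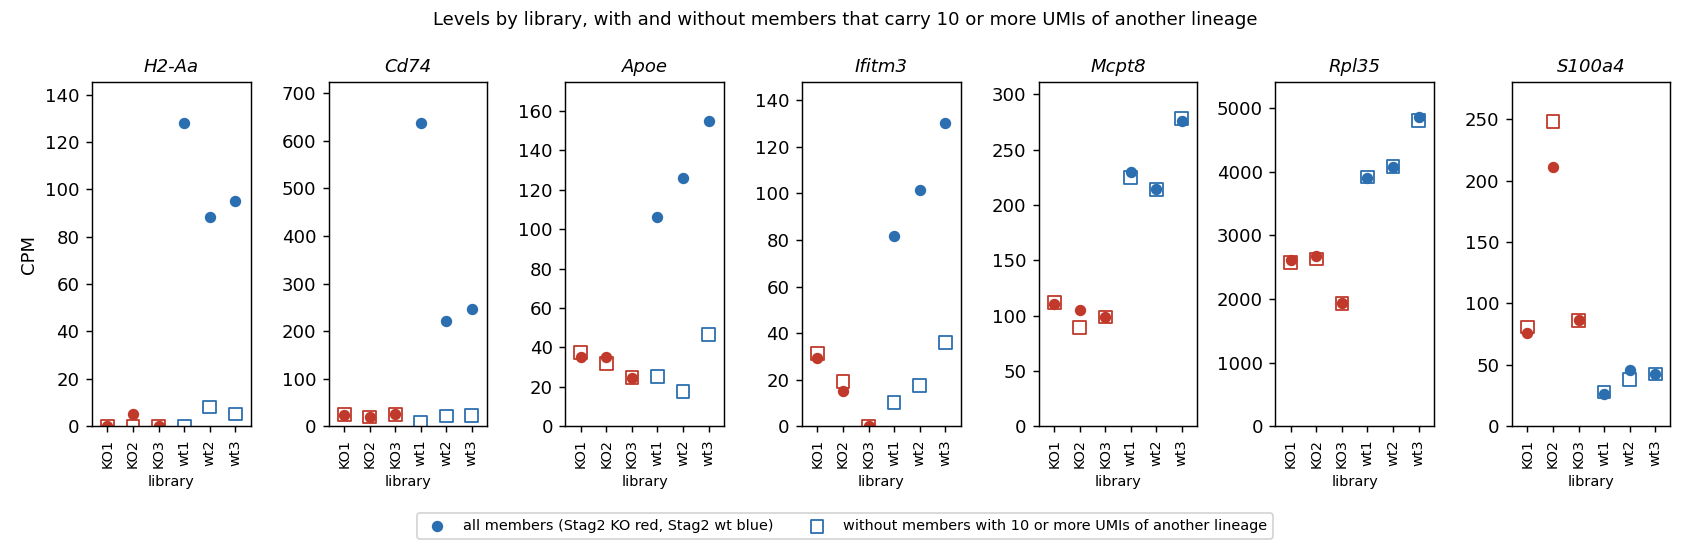
CPM of 6 genes called lower in Stag2 KO and of S100a4 in the members of each library (filled points) and in members without those that carry 10 or more UMIs of another lineage (open squares). For H2-Aa, Cd74, Apoe and Ifitm3 the Stag2 wt squares lie at 46.4 CPM or less, while for Mcpt8, Rpl35 and S100a4 the genotypes stay apart. H2-Aa, Cd74 and Mcpt8 are on the lists by which the members left out were chosen.

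Markers of other cell types were seen in most members. Here all 60 markers of the B cell, basophil, granulocyte, and erythroid and megakaryocyte lists were counted, without the monocyte and dendritic cell list. At least 3 UMIs of these other lineages were found in 83.0%, 89.6% and 92.6% of members of the KO libraries and in 90.2%, 80.4% and 86.4% of members of the wt libraries. Their part in the results was tested only by leaving such members out. The granulocyte list summed to 752, 9459 and 702 CPM in KO members and 289, 2201 and 2313 CPM in wt members, and 1 member of KO2 held 545 of that library's 573 S100a8 UMIs. The monocyte and dendritic cell list summed to 1189, 1409 and 1060 CPM in KO members and 2453, 2280 and 1970 CPM in wt members. The gamma delta list summed to 117, 411 and 271 CPM in KO members and 146, 123 and 122 CPM in wt members, with 2 of its 12 genes found in the tables at 0 in every library. Gzma, a granzyme abundant in NK cells, had 52.4, 25.1 and 61.6 CPM in KO members and 19.9, 548 and 140 CPM in wt members, and 28 members of wt2 had a UMI of it, the highest holding 89 of 464.

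Whether the genotype acted differently on CD8 T cell-like cells than on other lymphocytes was tested on each library's own difference between classes. Against CD8-negative T cell-like cells, limma called 0 of 3054 genes (0%), with 185 at an unadjusted p under 0.05 (6.06%); DESeq2 and edgeR were not run on this difference. The smallest p was that of Ifi27l2a, an interferon-induced gene, with 262, 120 and 234 CPM in KO members and 163, 160 and 174 CPM in wt members. CD8-negative T cell-like cells had 437, 102 and 152 CPM of it in the KO libraries and 52.3, 52.3 and 60.6 CPM in the wt libraries (difference -1.62, SE 0.30, limma adjusted p = 0.509). Trbc1 had 772, 780 and 721 CPM in CD8-negative T cell-like cells of the KO libraries and 674, 615 and 667 CPM in those of the wt libraries, so that its genotype difference was lower in members by 0.75 on the log2 scale without passing (limma adjusted p = 0.765).

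Against NK cell-like cells the genotype effect differed for 42 of 3039 genes (1.38%) in limma, in 40 of them (1.32%) with the more negative effect in members. Of the 42 genes 33 (78.6%) were ribosomal protein genes, which is 35.1% of the 94 Rpl and Rps genes tested. Ribosomal protein genes took 43.6%, 41.2% and 43.4% of the members' UMIs in the KO libraries, and 47.6%, 44.3% and 43.5% in the wt libraries. In NK cell-like cells they took 36.1%, 37.2% and 35.8% in the KO libraries and 35.5%, 34.5% and 33.2% in the wt libraries. In NK cell-like cells every KO library was above every wt library; in members KO1 lay above wt3. Rpl3, for example, had 4393, 3541 and 3882 CPM in KO members and 4006, 4550 and 4890 CPM in wt members. NK cell-like cells had 4235, 3884 and 3938 CPM of Rpl3 in the KO libraries and 3003, 3732 and 3910 CPM in the wt libraries (difference -0.57, SE 0.09, limma adjusted p = 0.0187).

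Genes of other kinds were among the 42. S1pr1, the receptor by which lymphocytes leave tissues, had 81.6, 70.2 and 61.6 CPM in KO members and 141, 97.9 and 85.4 CPM in wt members, whereas NK cell-like cells had 40.1, 37.6 and 37.4 CPM in the KO libraries and 20.3, 8.30 and 21.3 CPM in the wt libraries. The genotypes did not overlap in either class and stood in opposite order (difference -1.94, SE 0.34, limma adjusted p = 0.0222). Gzmm had 25.6, 22.8 and 53.9 CPM in NK cell-like cells of the KO libraries and 10.1, 25.7 and 11.6 CPM in those of the wt libraries, against its members' values above (difference -2.20, SE 0.36, limma adjusted p = 0.0197). Leaving out any library other than wt3 left 0 calls, and without wt3 there were 40.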

How the data were processed

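Polyadenylated RNA was turned into libraries with 10x Chromium 3′ V2 reagents, per the labels. For each library the authors deposited raw UMI counts, with cells in rows and genes in columns. Aligner, counter, strand and build: not given in the sources used here. A cell with at least 500 detected genes was kept, and members were gated on their counts as described above. The members, lists and tests were chosen with earlier results of these data known. Repeated symbols (6 to 8 per table) were summed, and 17325 of 18011 symbols were spelled by GENCODE M21.

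Counts were summed over the members of a library and tested with edgeR 4.0.16 (TMM, low-count filter, quasi-likelihood test, Benjamini-Hochberg adjustment at 0.05). The 10 genes of the rule stayed in library sizes and were not tested. Differences between classes were tested with limma 3.58.1 on log2 CPM with a prior count of 2. Shares were compared by 2-sided exact permutation over libraries. DESeq2 1.42.0 was an alternative. The steps were tested on simulated data with the same spread for every gene. There 55 of 88 genes with a 4-fold class difference from CD8-negative cells were recovered, with 3 false calls. Python 3.11.15 and R 4.3.3 were used, with random seed 1.

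Genes were named if called, without overlap and at a mean of at least 10 CPM. Where under 5 qualified in a direction those with the smallest p followed as not passed. List members with the smallest p and a set of T cell genes were added. The Ccl5 and naive classes were set, and their genes named, after values were seen. One gene of the T cell set and the naive list is not reported here. Of the promoter windows, Cd8b1, Ccl5, Ccr7 and Il2rb were not used here.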

Additional observations from a re-analysis of the deposited data

Results flagged for a closer look

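The genotype effect differed between CD8 T cell-like and NK cell-like cells for 42 genes in limma. The smallest p were those of 5 ribosomal protein genes. The effect in CD8 T cell-like cells minus that in NK cell-like cells was -0.41 on the log2 scale for Rpl13, -0.49 for Rps7, -0.57 for Rpl3, -0.42 for Rps18 and -0.41 for Rps23 (limma adjusted p = 0.0187 for each). Groups of 3 libraries are too small for a search for single outlying samples.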

How the results depend on the processing

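The share of members among all cells was lower in Stag2 KO under every alternative run. Its difference, -3.66 percentage points, was -2.13 with at least 1000 genes per cell, -2.99 with at least 2 CD8 UMIs, -2.99 with cells thinned to 2000 UMIs and -0.555 with possible doublets left out (3 UMIs of other lineages, which removed 80.4 to 92.6% of members); leaving out 1 library gave -4.02 to -3.39. The share among T cell-like cells (-9.57) was -19.5 with possible doublets left out, -5.82 with cells thinned to 2000 UMIs and -7.13 with at least 1000 genes per cell, each with overlapping genotypes (p = 0.2), and -3.04 in XA libraries, and leave-one-out gave -12.8 to -7.74. edgeR on cell counts (log2 fold changes -2.09 and -0.41) passed where the exact test could not. Leave-one-out gave -2.68 to 7.45 for the Ccl5 share (1.81) and -18.0 to -7.31 for the naive gene share (-12.1). The 7 genes lower and 0 higher became 32 and 16 with no low-count filter and 28 and 18 in XA libraries alone (1 wt library, assumed to vary like the KO libraries). They became 4 lower with the title code as a covariate, 2 of them among the 7 (Cd74 and H2-Aa), and 0 lower with possible doublets left out (276 genes tested). With the code as a covariate the genotype effect rests on the KO libraries against wt1 alone. Without members with 10 UMIs of another lineage, a bound chosen after seeing the data, 4 were lower and 1 higher, 3 of the called genes being among the 7. Higher counts were 3 with the stricter CD3 and CD8 bounds, 1 with at least 1 CD3 UMI and 1 in DESeq2; leave-one-out gave 3 to 10 lower and 0 to 5 higher, with 5 higher without KO1, 2 without KO2, 2 without KO3, 1 without wt1, 1 without wt2, and 3 lower (Apoe, Cd74, H2-Aa) without wt3. The 0 calls against CD8-negative cells became 0 to 1, and the 42 against NK cell-like cells 0 to 40, leave-one-out, and 9 with at least 5 CPM in both classes. Of the values of named genes under alternatives, 1348 kept their side of the threshold, 18 lost it, 37 gained it and 0 that had passed changed sign. A further 197 could not be had because the gene missed the low-count filter, Apoe, Cd74, H2-Aa and Ifitm3 among them without members with 10 UMIs of another lineage. No paired analysis was possible because the labels give no replicate numbers. The cause of these shifts was not tested. Fewer than 50 members per KO library limit all KO values.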
